A study of Arabidopsis thaliana with 24 samples.

Results

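Transcripts of 10 gibberellin oxidase genes were followed in whole Arabidopsis thaliana seedlings of 3 labelled genotypes given shade for the first or the second time. The genes were chosen by identifier from the 33026 genes of the deposited expression table. They are the synthesis genes GA20OX1 (AT4G25420), GA20OX2 (AT5G51810), GA3OX1 (AT1G15550) and GA3OX2 (AT1G80340), and the inactivation genes GA2OX1 (AT1G78440), GA2OX2 (AT1G30040), GA2OX4 (AT1G47990), GA2OX6 (AT1G02400), GA2OX7 (AT1G50960) and GA2OX8 (AT4G21200). All 10 were listed in the table under these names, and 9 of them reached 1 TPM in at least 2 libraries and were tested among 21473 genes. GA2OX7 did not.

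Gibberellins are diterpenoid hormones that promote stem and petiole elongation by triggering the breakdown of DELLA repressor proteins, which otherwise bind and block growth-promoting transcription factors such as the PIFs. GA20OX enzymes carry out the successive oxidations that give the direct precursors, and GA3OX enzymes convert these into the bioactive hormones. GA2OX enzymes inactivate them: GA2OX1, GA2OX2, GA2OX4 and GA2OX6 act on bioactive gibberellins and their direct precursors, while GA2OX7 and GA2OX8 act on earlier intermediates. Plants perceive a low red to far-red ratio as shade from neighbours, and the elongation that follows requires gibberellin.

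Seedlings were of the Col-0 wild type (WT) or of lines labelled pif7-1 and ref6-1. PIF7 is a bHLH factor central to shade responses, and REF6 is a Jumonji histone demethylase. At 4 days of age they received 8 h of white light (naive) or 8 h of priming shade (primed), followed by 40 h of white light. Samples were then taken from controls in white light or from seedlings given 1 h of triggering shade, in which the ratio of red to far-red light was near 0.5. With 2 libraries per group there were 12 groups. Nothing in the labels says that the libraries of a group came from separate cultures, so a p-value here reflects the scatter of these samples alone, and that scatter may be technical. Tests were made with limma on log2(TPM + 1), a scale that understates changes of genes near 1 TPM. A change passed at an adjusted p under 0.05.

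The shade check genes PIL1, ATHB2, HFR1 and IAA29 rose (4 of 4) in each of the 6 shade responses. PIF7 stood at 1.09 to 3.03 TPM in the 8 pif7-1 libraries against 19.2 to 76.6 TPM in the other 16. REF6 did not separate the ref6-1 libraries (6.16 to 10.95 TPM) from WT (8.13 to 12.9 TPM), so it does not check that label. The naive and primed libraries labelled ref6-1 differed from each other: ATXR7, a histone methyltransferase gene, was at 0.02 TPM or lower in the 4 naive ones and at 4.44 TPM or higher in the other 20 libraries of the series. The 8 naive mutant libraries come in a later run of sample entries than the other 16, and entry block and genotype cannot be told apart in naive levels. Naive mutant levels are therefore set beside WT without a test, while shade responses, measured within a block, are tested. The difference between a naive mutant response and the WT response still spans the entry blocks. In such a difference, genotype cannot be told apart from an effect of block on the response. The shoot genes RBCS1A and LHCB1.2 were at 2233 TPM or higher and the floral genes AP1 and AG at 0.17 TPM or lower in all 24 libraries. The 8 root markers summed to 45.4 and 58.2 TPM in naive WT in white light, 11.7 and 17.6 TPM in naive WT shade, 19.1 and 24.7 TPM in primed WT in white light, and 38.4 and 50.9 TPM in primed WT shade. In bulk seedlings, fewer cells of a type and less RNA per cell cannot be told apart. Mitochondrial transcripts were at 321 and 559 TPM in naive WT shade and at 158 and 407 TPM in naive ref6-1 shade, against 58.9 to 186 TPM elsewhere.

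All 10 genes were expressed at low levels. GA2OX6 had the highest level over all libraries, with a mean of 6.89 TPM and a range of 2.17 to 25.8 TPM. GA20OX2 (mean 4.66, range 0.67 to 11.2 TPM) and GA20OX1 (mean 3.8, range 1.16 to 14.1 TPM) came next. GA2OX2, GA2OX4, GA2OX8, GA3OX2, GA3OX1 and GA2OX1 had means from 2.68 down to 0.898 TPM. GA2OX7 never exceeded 0.18 TPM and was listed at 0 in 11 of 24 libraries. The spread of the 12 group means was widest for GA2OX1 (39-fold), GA20OX2 (13.9-fold) and GA20OX1 (10.9-fold) among the 9 genes tested, and narrowest for GA2OX2 (2.59-fold). TPM keeps no read counts, so the counting precision behind these low values is unknown.

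**Figure D1:**
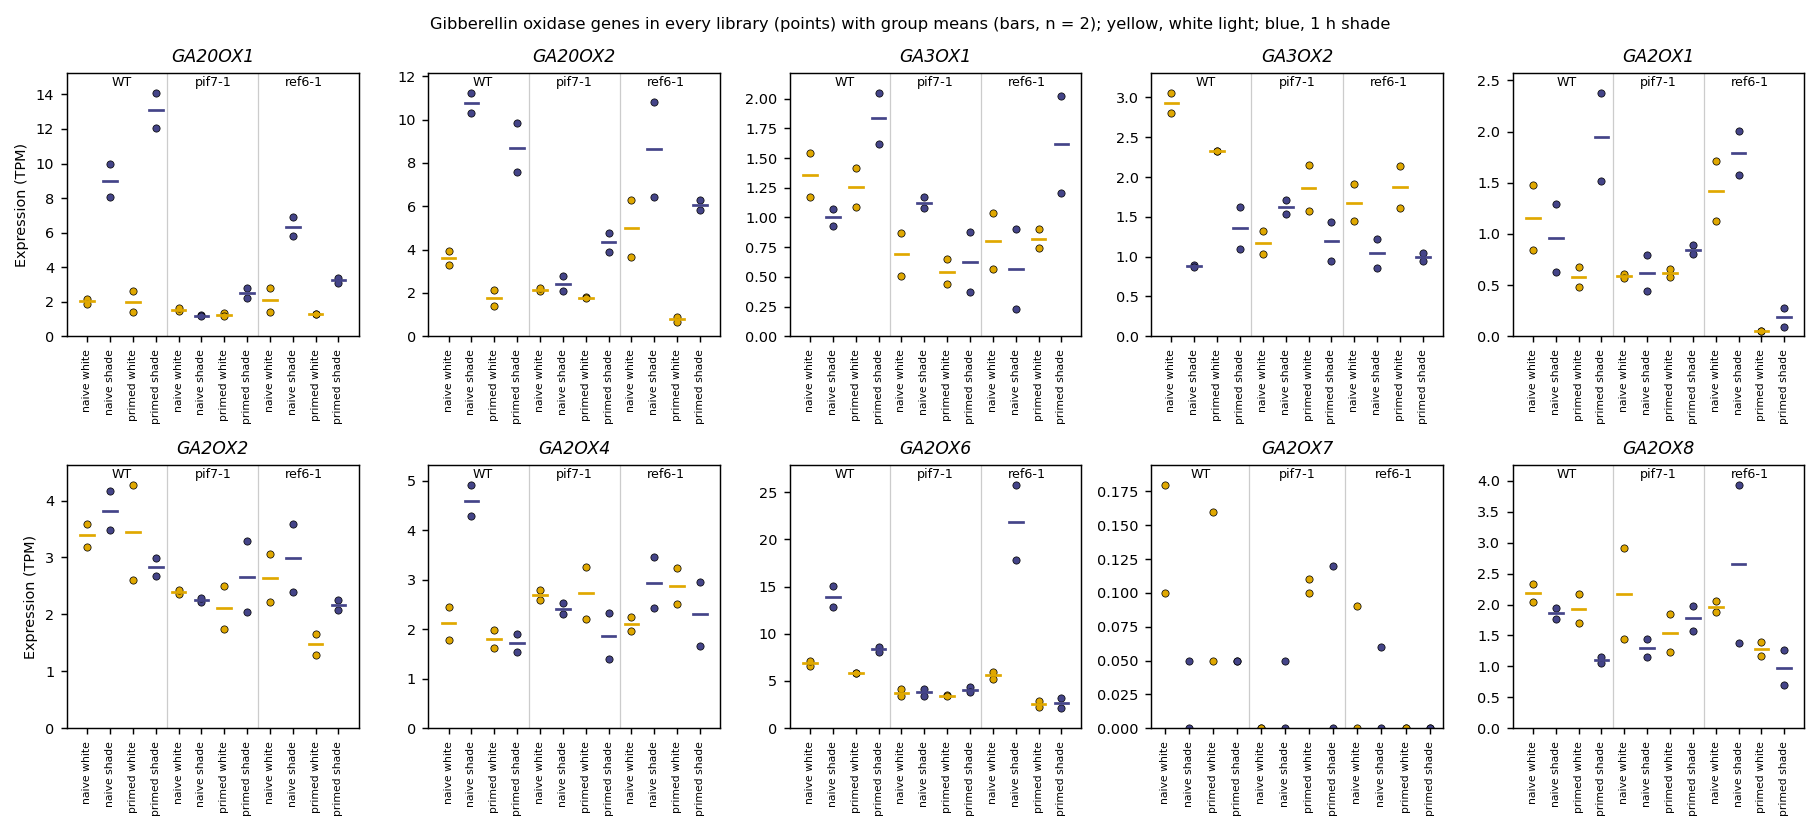
Expression (TPM, linear axis from 0, a separate scale for each gene) of the 10 genes in 12 groups; points are the 2 libraries of a group and bars their mean (no bar is drawn for GA2OX7, which has values of 0). GA20OX1 reached 14.1 TPM in primed WT shade and did not exceed 2.79 TPM in any pif7-1 library, and GA2OX1 was at 0.28 TPM or lower in the 4 primed ref6-1 libraries.

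The synthesis gene GA20OX1 was high in shaded WT and, less so, in shaded ref6-1. In WT its 2 libraries read 2.16 and 1.89 TPM in naive white light, 8.08 and 9.95 TPM in naive shade, 2.6 and 1.41 TPM in primed white light, and 14.1 and 12.1 TPM in primed shade. In pif7-1 the same order of groups gave 1.45 and 1.61, 1.24 and 1.16, 1.33 and 1.18, and 2.2 and 2.79 TPM. In ref6-1 it gave 2.78 and 1.4, 6.88 and 5.81, 1.28 and 1.28, and 3.36 and 3.11 TPM. Ordered by level, primed WT shade stood above naive WT shade, followed by naive ref6-1 shade and primed ref6-1 shade, with no overlap between these 4 neighbours. The next group in level was primed pif7-1 shade, and its libraries overlapped those of naive ref6-1 and primed WT in white light.

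GA20OX2, which encodes a second enzyme of the same step, was also highest in shaded WT but had more overlap between groups. In WT it read 3.29 and 3.92 TPM in naive white light, 10.3 and 11.2 TPM in naive shade, 2.12 and 1.38 TPM in primed white light, and 9.82 and 7.58 TPM in primed shade. In pif7-1 the values were 2.08 and 2.23, 2.07 and 2.77, 1.8 and 1.75, and 3.9 and 4.77 TPM in that order. In ref6-1 they were 6.27 and 3.68, 10.8 and 6.43, 0.88 and 0.67, and 6.27 and 5.82 TPM. The lowest group was primed ref6-1 in white light, which did not overlap any other group. The naive ref6-1 replicates differed most in TPM among the pairs of this gene, and naive ref6-1 shade overlapped both shaded WT groups.

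The final synthesis step is encoded here by GA3OX1 and GA3OX2, which had low levels and differed in pattern. GA3OX2 read 2.8 and 3.06 TPM in naive WT in white light, 0.9 and 0.87 TPM in naive WT shade, 2.33 and 2.33 TPM in primed WT in white light, and 1.62 and 1.1 TPM in primed WT shade. It was thus lower in each shaded WT library than in each WT library in white light. In pif7-1 its values were 1.32 and 1.03 TPM in naive white light, 1.71 and 1.54 TPM in naive shade, 2.15 and 1.57 TPM in primed white light, and 1.44 and 0.95 TPM in primed shade. In ref6-1 it ranged from 1.45 to 2.14 TPM in white light and from 0.86 to 1.22 TPM in shade. GA3OX1 lay between 0.23 and 2.05 TPM across all libraries, with its highest group mean of 1.83 TPM in primed WT shade and its lowest of 0.545 TPM in primed pif7-1 in white light.

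Among the inactivation genes, GA2OX6 was the most abundant. In WT it read 6.55 and 7.15 TPM in naive white light, 12.8 and 15.1 TPM in naive shade, 5.8 and 5.88 TPM in primed white light, and 8.59 and 8.09 TPM in primed shade. In ref6-1 the same groups gave 5.26 and 5.94, 25.8 and 17.8, 2.9 and 2.21, and 2.17 and 3.16 TPM. Naive ref6-1 shade held the highest values of this gene and primed ref6-1 the lowest. In pif7-1 all 8 libraries lay between 3.39 and 4.33 TPM, under every WT library.

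GA2OX4 stood out in a single group. It read 4.28 and 4.92 TPM in naive WT shade and no more than 3.46 TPM in any other library. Its WT values elsewhere were 1.79 and 2.45 TPM in naive white light, 1.63 and 1.98 TPM in primed white light, and 1.54 and 1.91 TPM in primed shade. In the mutants it ranged from 1.4 to 3.46 TPM in shade and from 1.96 to 3.25 TPM in white light, and the 2 lights overlapped.

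GA2OX1 was detected at 0.05 and 0.05 TPM in primed ref6-1 in white light and at 0.28 and 0.09 TPM in primed ref6-1 shade. These 4 libraries were the lowest of the 24. The naive ref6-1 libraries stood at 1.71 and 1.13 TPM in white light and at 2.01 and 1.58 TPM in shade. In WT the gene read 1.48 and 0.84 TPM in naive white light, 0.63 and 1.29 TPM in naive shade, 0.68 and 0.48 TPM in primed white light, and 2.38 and 1.52 TPM in primed shade. In pif7-1 it stayed between 0.44 and 0.89 TPM. GA2OX2 ranged from 1.29 to 4.28 TPM over all libraries, with its lowest group mean of 1.48 TPM in primed ref6-1 in white light. GA2OX8 ranged from 0.7 to 3.94 TPM, and its replicates were farthest apart in naive ref6-1 shade (3.94 and 1.38 TPM).

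In naive WT seedlings, the first hour of shade raised transcripts of both GA20OX genes and of GA2OX4 and GA2OX6, and lowered GA3OX2. GA20OX1 rose 4.45-fold in mean TPM (log2 change 1.72, SE 0.21, adjusted p = 2.53e-05) and GA20OX2 2.99-fold (log2 change 1.36, SE 0.23, adjusted p = 0.000392). GA2OX6 rose 2.03-fold (log2 change 0.92, SE 0.17, adjusted p = 0.000842) and GA2OX4 2.17-fold (log2 change 0.85, SE 0.22, adjusted p = 0.00772). GA3OX2 fell to 0.302 of its white-light mean (log2 change -1.06, SE 0.18, adjusted p = 0.000426). The remaining 4 genes tested did not pass, with log2 changes from -0.23 (GA3OX1) to 0.13 (GA2OX2). Thus 4 of 9 tested genes rose and 1 fell, where 35.6% of all tested genes passed, 12.5% higher and 23.1% lower (19.4% and 20.3% under quantile normalization). The median log2 change was 0.13 over the 9 genes and -0.10 over all genes, which quantile normalization moved to 0.00434. The root markers fell in 8 of 8 cases in this comparison. Of the shoot genes, RBCS1A fell (-0.69, adjusted p = 0.000653) and LHCB1.2 rose (0.91, adjusted p = 0.00805). The part of these markers in the results was not tested. The call of GA2OX4 was lost without replicate 1 in white light (adjusted p = 0.0663) or replicate 2 in shade (0.0535), and with only the 4 compared libraries in the model (0.0625).

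Primed WT seedlings raised both GA20OX genes in the triggering shade, along with GA2OX1. GA20OX1 rose 6.53-fold in mean TPM (log2 change 2.25, SE 0.21, adjusted p = 3.48e-06) and GA20OX2 4.97-fold (log2 change 1.82, SE 0.23, adjusted p = 5.96e-05). GA2OX1 rose 3.36-fold from a low level (log2 change 0.89, SE 0.23, adjusted p = 0.0101). GA3OX2 (log2 change -0.51, 95% interval -0.89 to -0.12, adjusted p = 0.0549) and GA2OX6 (0.45, interval 0.08 to 0.82, adjusted p = 0.0731) did not pass, and GA2OX4 stood at -0.04 (interval -0.51 to 0.43, adjusted p = 0.921). In all 3 of 9 tested genes rose and 0 fell, against 14.5% and 8.94% of all tested genes (23.4% in all). The root markers rose in 2 of 8 cases here. RBCS1A fell (-0.64, adjusted p = 0.00188) and LHCB1.2 did not pass (0.08, adjusted p = 0.853). The part of these markers was not tested. The call of GA2OX1 was lost without replicate 2 in white light (adjusted p = 0.0682), without replicate 1 in shade (0.117) and with only the compared libraries (0.0562).

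**Figure D2:**
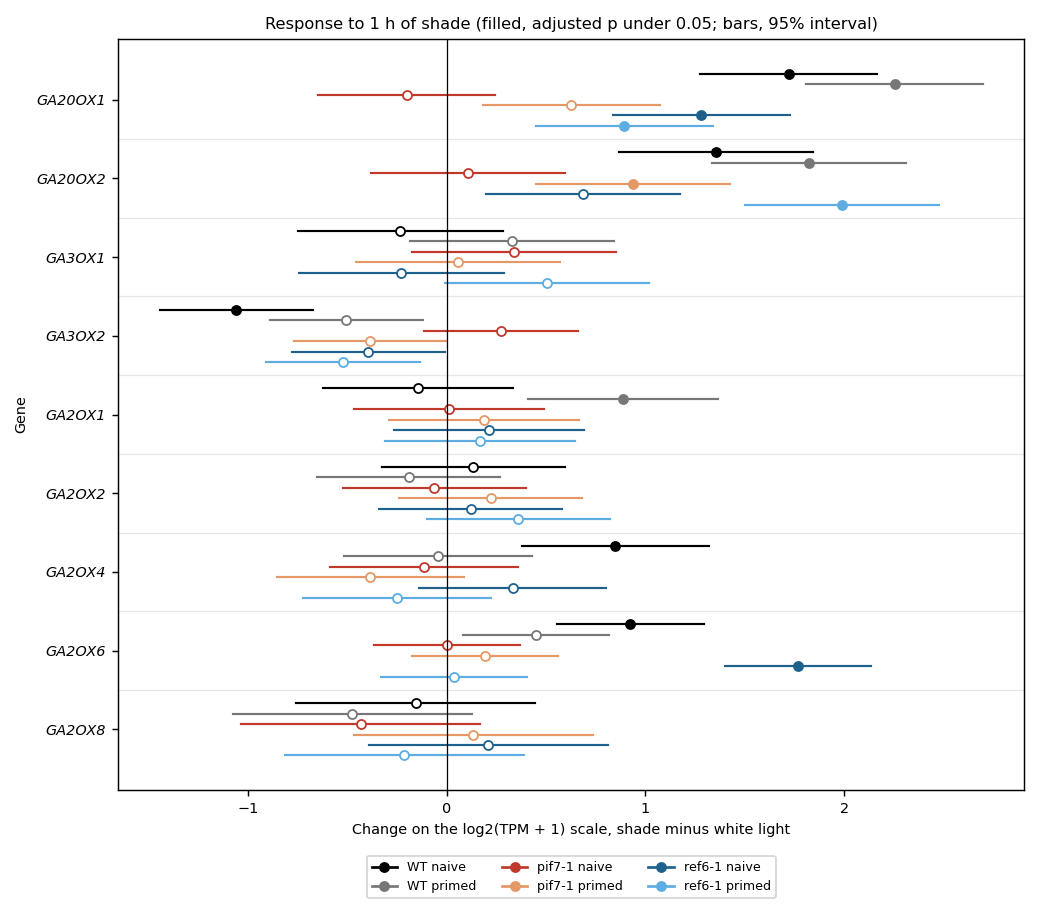
Change of each tested gene after 1 h of shade on the log2(TPM + 1) scale (x axis) in 6 combinations of genotype and history; points are estimates, bars 95% intervals, and filled points passed at an adjusted p under 0.05. GA20OX1 lay at 1.72 and 2.25 in WT and at -0.20 and 0.63 in pif7-1, and GA2OX6 was at 1.77 in naive ref6-1 and at 0.04 in primed ref6-1. The naive and primed ref6-1 libraries differ in ATXR7 and in entry block, and their responses were not tested against each other.

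Whether priming altered the WT response was tested as the difference between the primed and the naive shade response. GA2OX1 responded more strongly after priming (difference 1.03, SE 0.32, adjusted p = 0.0201) and GA2OX4 less (-0.89, SE 0.31, adjusted p = 0.0373). The GA20OX responses did not pass as different: GA20OX1 at 0.53 (95% interval -0.10 to 1.16, adjusted p = 0.177) and GA20OX2 at 0.46 (interval -0.23 to 1.16, adjusted p = 0.286). The intervals reach above 1 on the log2 scale, so a further doubling is not outside them. GA3OX2 stood at 0.55 (adjusted p = 0.105) and GA2OX6 at -0.48 (adjusted p = 0.145). Hence 1 of 9 genes was higher and 1 lower, against 23% and 12.4% of all tested genes (35.4% in all; 20.5% and 19.1% under quantile normalization), so the share called was no larger among these genes than over all genes. The root markers were higher in 8 of 8 cases in the same test, and their part was not tested. Omission of any 1 of the 8 libraries other than replicate 2 in naive white light ended the call of GA2OX4 (adjusted p = 0.0547 to 0.12), as did omission of the naive mutants (0.0639). The call of GA2OX1 ended under quantile normalization (0.0516), with only the compared libraries (0.0721) and without naive white-light replicate 1 (0.0821), naive shade replicate 1 (0.0959), primed white-light replicate 2 (0.0625) or primed shade replicate 1 (0.0943).

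Levels of primed and naive WT were also compared directly. In white light, 40 h after the priming shade, none of the 9 genes passed with limma, 1 had an unadjusted p under 0.05, and 7.53% of all tested genes passed (1.85% higher and 5.67% lower; 4.29% and 4.14% under quantile normalization). That gene was GA20OX2, at 0.485 of its naive level (log2 difference -0.75, 95% interval -1.24 to -0.27, unadjusted p = 0.00486, adjusted p = 0.0568). A single call each was made with a pseudocount of 0.1 and without the naive mutant libraries. Of the 8 root markers, PRP3 (-1.86, adjusted p = 0.00868) and COBL9 (-0.77, adjusted p = 0.0335) passed as lower in white light, and the others did not pass. The shoot gene LHCB1.2 was higher there (1.05, adjusted p = 0.0153), and RBCS1A did not pass (adjusted p = 0.994). The part of these markers was not tested. In shade, GA2OX4 was lower in primed than in naive seedlings, at 0.375 of the naive mean (log2 difference -1.04, SE 0.22, adjusted p = 0.00152). GA2OX6 was at 0.599 of it (-0.67, SE 0.17, adjusted p = 0.0055), and GA2OX1 was 2.03-fold higher (0.60, SE 0.23, adjusted p = 0.0431). GA20OX1 was 1.45-fold higher in mean without passing (0.50, 95% interval 0.05 to 0.94, adjusted p = 0.0682). This made 1 gene higher and 2 lower of 9, against 22.1% and 21% of all tested genes (43.1% in all). The root markers were higher in 8 of 8 cases, and their part was not tested. The call of GA2OX6 ended without naive shade replicate 2 (adjusted p = 0.0551). That of GA2OX1 ended under quantile normalization (0.0783), with a pseudocount of 0.1 (0.092), without the naive mutants (0.0568), with only the compared libraries (0.143), and without replicate 1 of the naive (0.33) or primed (0.308) group, which brought its log2 difference down to 0.35 and 0.38.

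In naive pif7-1 seedlings none of the 9 genes passed with limma, 0 had an unadjusted p under 0.05, and 7.38% of all tested genes passed (1.89% higher and 5.49% lower; 4.43% and 4.57% under quantile normalization). GA20OX1 had a log2 change of -0.20 (95% interval -0.65 to 0.24) and GA20OX2 of 0.11 (interval -0.38 to 0.60). In primed pif7-1 seedlings GA20OX2 rose 2.44-fold (log2 change 0.94, SE 0.23, adjusted p = 0.0305). It was the 1 gene of 9 that passed, against 5.01% of all tested genes, 1.59% higher and 3.42% lower (3.07% and 3.26% under quantile normalization). GA20OX1 had a log2 change of 0.63 (95% interval 0.18 to 1.07, adjusted p = 0.0905). The call of GA20OX2 ended when any 1 of the 4 libraries was left out (adjusted p = 0.0628 to 0.167) and with only the compared libraries (0.374).

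The difference between the pif7-1 and WT responses was tested next. For naive seedlings, genotype and entry block cannot be told apart in this difference. In naive seedlings GA20OX1 (difference -1.92, SE 0.30, adjusted p = 0.000665), GA20OX2 (-1.25, SE 0.33, adjusted p = 0.0207) and GA2OX6 (-0.92, SE 0.25, adjusted p = 0.0227) had weaker responses in pif7-1. GA3OX2, which fell in WT, had a positive difference of 1.33 (SE 0.26, adjusted p = 0.00338). So 3 of 9 genes had a lower and 1 a higher response, against 6.38% and 6.49% of all tested genes (12.9% in all). GA2OX4 narrowly missed at -0.96 (adjusted p = 0.0548). In primed seedlings GA20OX1 alone passed (difference -1.63, SE 0.30, adjusted p = 0.00311), 1 of 9 genes, against 16.1% of all tested genes, 3.34% with a higher and 12.8% with a lower response (7.65% and 10.7% under quantile normalization). GA20OX2 stood at -0.88 (95% interval -1.57 to -0.19, adjusted p = 0.0747). Of the 8 root markers, PRP3 and COBL9 had a higher response in naive pif7-1 than in WT, and PRP3 and EXPA18 a lower one in primed pif7-1. The shoot gene RBCS1A had a higher response in naive pif7-1 (difference 1.07, adjusted p = 0.00107). RBCS1A fell in naive WT (log2 change -0.69, adjusted p = 0.000653), and its change in naive pif7-1 did not pass (0.38, adjusted p = 0.0757). For the other shoot gene, LHCB1.2, the naive difference was -0.43 without passing (adjusted p = 0.44). The part of these markers was not tested. The GA20OX1 and GA3OX2 differences passed in each alternative in which the gene was tested. In naive seedlings the call of GA20OX2 ended without WT white-light replicate 1 (adjusted p = 0.0709), WT shade replicate 2 (0.0647), pif7-1 white-light replicate 2 (0.0642) or pif7-1 shade replicate 1 (0.102). That of GA2OX6 ended without WT white-light replicate 1 (0.0709), WT shade replicate 2 (0.0853), pif7-1 white-light replicate 1 (0.083) or pif7-1 shade replicate 2 (0.069), and with only the compared libraries (0.0628).

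The lines labelled ref6-1 raised GA20OX1 in shade in either history. The naive and primed responses of ref6-1 were not tested against each other, since their libraries differ in ATXR7. In naive ref6-1 GA2OX6 rose 3.89-fold (log2 change 1.77, SE 0.17, adjusted p = 8.41e-06) and GA20OX1 3.04-fold (log2 change 1.28, SE 0.21, adjusted p = 0.00104). GA20OX2 narrowly missed (0.68, 95% interval 0.20 to 1.17, adjusted p = 0.0513). That was 2 of 9 genes higher, against 17.4% of all tested genes, 8.96% higher and 8.43% lower. Root markers fell in 8 of 8 cases. The seed gene EM1 rose (1.26, adjusted p = 0.0296), while the seed genes CRA1 and CRU3 did not pass. The part of these markers was not tested. In primed ref6-1 GA20OX2 rose 7.8-fold from its low white-light level (log2 change 1.99, SE 0.23, adjusted p = 5.86e-05) and GA20OX1 2.53-fold (log2 change 0.89, SE 0.21, adjusted p = 0.011). GA2OX6 stood at 0.04 (95% interval -0.33 to 0.41, adjusted p = 0.93). These were 2 of 9 genes, against 12.7% of all tested genes, 10.2% higher and 2.58% lower (8.1% and 6.13% under quantile normalization). Root markers rose in 4 of 8 cases in primed ref6-1. EM1 (-1.86, adjusted p = 0.00419) and LHCB1.2 (-0.94, adjusted p = 0.0164) fell there, and CRA1, CRU3 and RBCS1A did not pass. The part of these markers was not tested. With only the 4 compared libraries in the model both naive calls were lost (adjusted p = 0.0969 for GA2OX6 and 0.135 for GA20OX1). Leaving out any 1 library of primed ref6-1 ended the call of GA20OX1 (0.0535 to 0.0918).

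Set against the WT response, GA20OX1 responded less in primed ref6-1 (difference -1.36, SE 0.30, adjusted p = 0.0226), 1 of 9 genes, against 2.65% of all tested genes, 1.67% with a higher and 0.973% with a lower response. GA20OX2 did not pass, at 0.17 (95% interval -0.52 to 0.86, adjusted p = 0.885). In naive ref6-1 none of the 9 genes passed with limma, while 2 had an unadjusted p under 0.05 and 2.13% of all tested genes passed (1.31% higher and 0.824% lower; 1.44% and 1.54% under quantile normalization). The 2 genes were GA2OX6, at 0.84 (95% interval 0.32 to 1.37, adjusted p = 0.0937), and GA3OX2, at 0.67 (interval 0.12 to 1.21, adjusted p = 0.212). Root markers differed in 0 of 8 cases in either history. The shoot gene RBCS1A had a higher response in primed ref6-1 (difference 0.86, adjusted p = 0.0158). The shoot gene LHCB1.2 went the other way there without passing (-1.02, adjusted p = 0.131). The part of these markers was not tested. The primed GA20OX1 call rests on the full set of libraries: it ended without any 1 of 7 of its 8 libraries (adjusted p = 0.0672 to 0.121), the exception being primed WT white-light replicate 1. It ended also with a pseudocount of 0.1 (0.0801) and with only the compared libraries (0.0603).

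In primed shade GA20OX1 and GA2OX6 were lower than in WT in both mutants. GA20OX1 stood at 0.191 of the WT mean in pif7-1 (log2 difference -2.01, SE 0.21, adjusted p = 1.8e-05) and at 0.247 of it in ref6-1 (-1.73, SE 0.21, adjusted p = 0.000103). GA2OX6 was lower in pif7-1 (-0.88, SE 0.17, adjusted p = 0.00313) and in ref6-1 (-1.36, SE 0.17, adjusted p = 0.000158). GA20OX2 (-0.86, SE 0.23, adjusted p = 0.017) and GA3OX1 (-0.82, SE 0.24, adjusted p = 0.0276) passed in pif7-1. GA2OX1 passed in ref6-1 at 0.0949 of the WT mean (-1.30, SE 0.23, adjusted p = 0.0021), and in pif7-1 it was at -0.66 (adjusted p = 0.0511). GA2OX8 stood at 1.61 times the WT mean in pif7-1 without passing (0.40, 95% interval -0.21 to 1.00, adjusted p = 0.355). The counts were 4 of 9 lower in pif7-1, against 18.9% of all tested genes, 4.93% higher and 14% lower (9.81% and 12.4% under quantile normalization). They were 3 of 9 lower in ref6-1, against 6.22%, 2.78% higher and 3.45% lower. The 2 mutants were compared with the same WT libraries, so their differences are not independent of each other. Root markers were lower in 6 of 8 cases in pif7-1 and in 0 of 8 in ref6-1, and their part was not tested. In pif7-1 the 4 calls were lost with only the 4 compared libraries in the model (adjusted p = 0.0907 to 0.165). Those of GA20OX2 ended without WT replicate 1 (0.141) or pif7-1 replicate 1 (0.0932), and those of GA3OX1 without WT replicate 1 (0.16), WT replicate 2 (0.0833) or pif7-1 replicate 2 (0.165).

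In primed white light fewer of the 9 genes passed than in primed shade with the pseudocount of 1. In ref6-1 the share of all tested genes that passed was larger in white light (15.5%) than in shade (6.22%). GA2OX6 was lower than in WT in ref6-1, at 0.438 of the WT mean (log2 difference -0.95, SE 0.17, adjusted p = 0.00184), and in pif7-1, at 0.591 of it (-0.62, SE 0.17, adjusted p = 0.0471). GA2OX2 was lower in ref6-1 (-0.82, SE 0.22, adjusted p = 0.0173). GA2OX1 stood at 0.0862 of the WT mean in ref6-1 without passing (-0.59, 95% interval -1.07 to -0.11, adjusted p = 0.0928). On the log2(TPM + 1) scale a gene under 1 TPM can move little. With a pseudocount of 0.1 the count in ref6-1 was 4 of 9, given here without the share of all genes at that setting. With the pseudocount of 1 it was 2 of 9, against 15.5% of all tested genes, 4.43% higher and 11.1% lower (8.28% and 9.1% under quantile normalization). In pif7-1 it was 1 of 9, against 5.7%, 4.2% higher and 1.49% lower (5.05% and 3.62% under quantile normalization). The root markers summed to 12.3 and 7.88 TPM in ref6-1, 21.7 and 29 TPM in pif7-1, and 24.7 and 19.1 TPM in WT. In ref6-1 RBCS1A was lower (-0.51, adjusted p = 0.0115) and the seed gene EM1 higher (2.48, adjusted p = 0.000446). LHCB1.2 did not pass there (0.43, adjusted p = 0.25). The part of these markers was not tested. The pif7-1 call was lost when any 1 of the 4 libraries was left out (adjusted p = 0.133 to 0.289), and with the replicate number as a block (0.0542). The ref6-1 call of GA2OX2 was lost without WT replicate 2 (0.229) or ref6-1 replicate 2 (0.137), and with only the compared libraries those of GA2OX2 (0.159) and GA2OX6 (0.0793) ended.

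**Figure D3:**
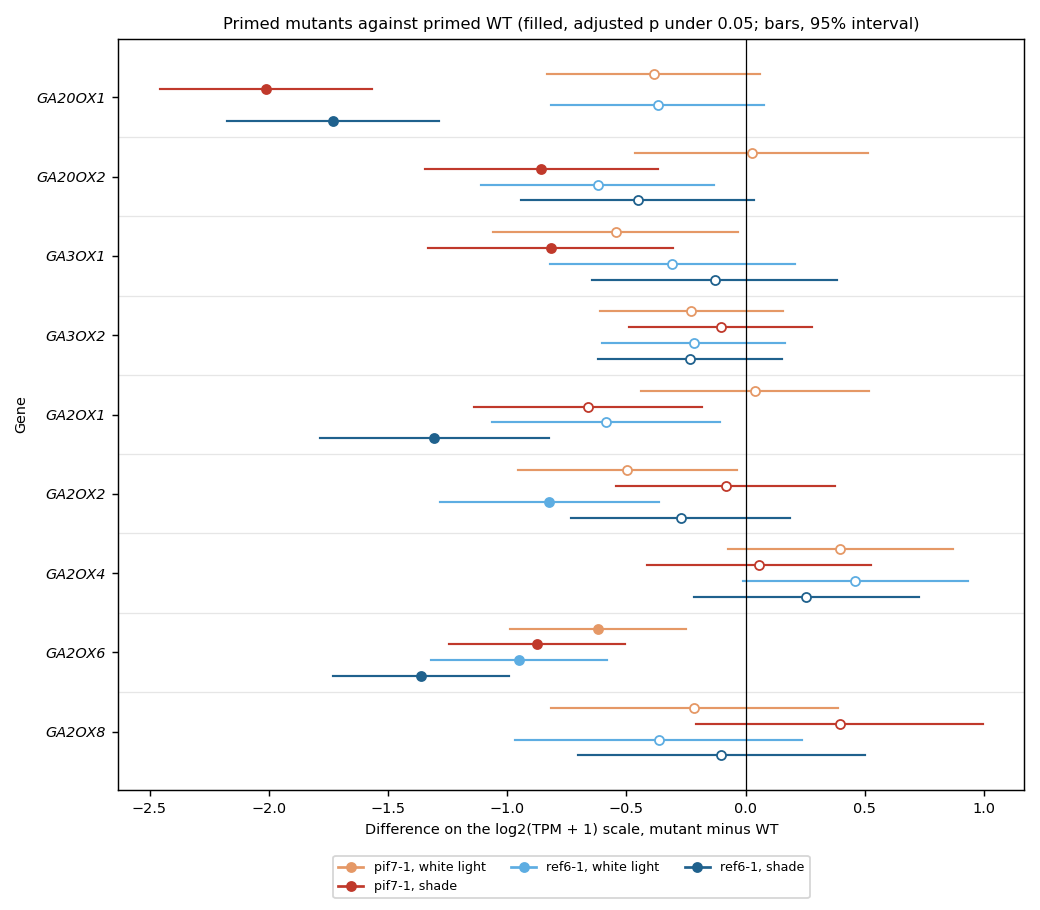
Difference of each tested gene between primed mutants and primed WT on the log2(TPM + 1) scale (x axis) in white light and in shade; points are estimates, bars 95% intervals, and filled points passed at an adjusted p under 0.05. GA20OX1 lay at -2.01 (pif7-1) and -1.73 (ref6-1) in shade, and all 4 estimates of GA2OX6 passed.

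TPM is scaled to transcript length, so levels of the genes can be added. The sum of GA20OX1 and GA20OX2 went from 5.63 ± 0.255 to 19.8 ± 1.97 TPM in naive WT and from 3.75 ± 1.36 to 21.8 ± 3.01 TPM in primed WT (white light to shade, mean ± SD, n = 2). The sum of the 6 GA2OX genes went from 15.8 ± 0.983 to 25.2 ± 2.83 TPM in naive WT and from 13.7 ± 1.6 to 16 ± 0.863 TPM in primed WT. The ratio of the GA20OX to the GA2OX sum was therefore 0.793 and 0.779 in the naive shaded WT libraries and 1.44 and 1.28 in the primed ones. It was 0.36 and 0.351 in naive and 0.375 and 0.188 in primed WT in white light. In shade the ratio was 0.323 and 0.374 in naive pif7-1, 0.53 and 0.681 in primed pif7-1, 0.469 and 0.459 in naive ref6-1, and 1.4 and 0.919 in primed ref6-1. In WT the shaded primed libraries lay above the shaded naive ones. In the mutants, history cannot be told apart from the entry block, and in ref6-1 also not from the difference in ATXR7. These sums are a description of mRNA, without a test, and carry no measure of enzyme activity or hormone.

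**Figure D4:**
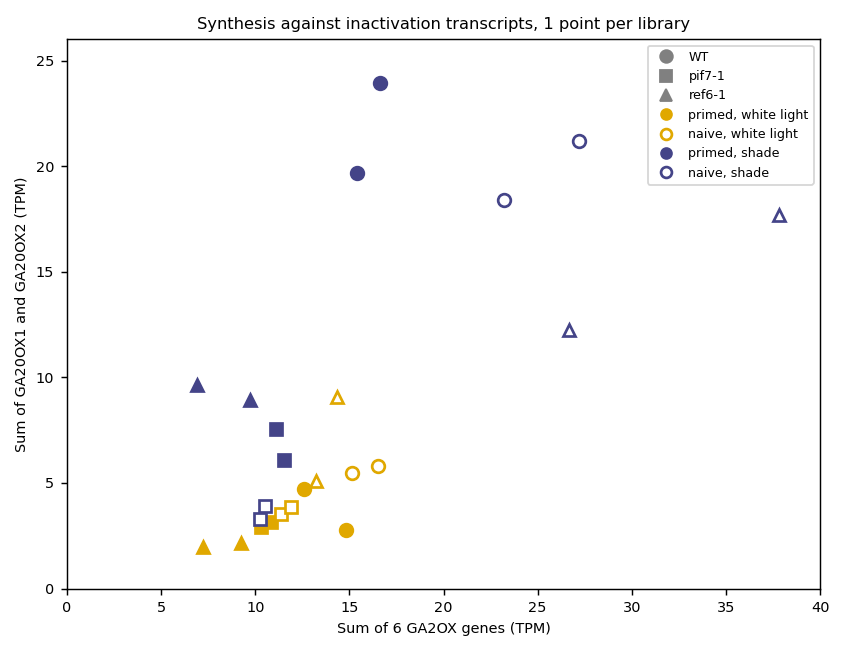
Sum of GA20OX1 and GA20OX2 (y axis, TPM) against the sum of the 6 GA2OX genes (x axis, TPM) in each of 24 libraries; symbols mark genotype, colour marks light, and open symbols are naive. The 4 shaded WT libraries lay at 18.4 to 23.9 TPM on the y axis, and the primed ones lay left of the naive ones, at 15.4 and 16.6 against 23.2 and 27.2 TPM.

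The remaining oxidase genes GA20OX3, GA20OX4, GA20OX5, GA3OX3, GA3OX4 and GA2OX3 did not exceed 0.27 TPM in any library, and none was tested. Of the 5 earlier synthesis genes CPS, KS, KO, KAO1 and KAO2, which make the substrates of the GA20OX enzymes, 4 were tested, since CPS stayed at 0.54 TPM or lower. None of the 4 passed in any of the 6 shade responses. In primed against naive WT shade, KAO2 (log2 difference -0.92, adjusted p = 0.00091) and KAO1 (-0.49, adjusted p = 0.0158) were lower. KAO2 read 35.1 and 44.1 TPM in naive and 20.9 and 19.6 TPM in primed WT shade. Among 9 genes of gibberellin perception (3 GID1 receptors, 5 DELLA genes and the F-box gene SLY1), 3 rose in naive WT shade, where 12.5% of all tested genes rose. In primed WT shade 5 rose and 1 fell, against 14.5% and 8.94% of all tested genes. The DELLA gene GAI rose in naive WT (log2 change 0.68, adjusted p = 0.000183), primed WT (0.73, adjusted p = 0.00019), naive pif7-1 (0.55, adjusted p = 0.00495) and primed pif7-1 (0.85, adjusted p = 0.000236), and also in both ref6-1 groups (0.92 naive, adjusted p = 3.71e-05, and 0.87 primed, adjusted p = 7.74e-05). Of 4 other inactivation genes only ELA1, a cytochrome P450 gene, was tested, at 0.32 to 1.91 TPM over all libraries. It fell in naive WT shade (-0.85, adjusted p = 0.00474), where 23.1% of all tested genes fell. In primed WT shade it did not pass (-0.07, adjusted p = 0.835). The difference between these responses, primed minus naive, was 0.78 (adjusted p = 0.0481).

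The GASA genes, which encode small cysteine-rich peptides and several of which respond to gibberellin, moved in both directions in WT. In naive WT shade GASA6 (log2 change 1.00, adjusted p = 0.000119) and GASA14 (0.83, adjusted p = 0.00218) rose, and GASA1 (-0.85, adjusted p = 0.00321) and GASA4 (-0.71, adjusted p = 0.00383) fell, which made 2 higher and 2 lower of 4, against 12.5% and 23.1% of all tested genes. In primed WT shade GASA14 rose (1.46, adjusted p = 4.54e-05) and GASA6 fell (-0.72, adjusted p = 0.00251). GASA1 (0.33, adjusted p = 0.234) and GASA4 (0.05, adjusted p = 0.857) did not pass there. In white light GASA1 (-0.87, adjusted p = 0.0128) and GASA14 (-1.54, adjusted p = 0.00032) were already lower in primed than in naive WT. The response differed between the WT histories for 3 of the 4 genes, primed minus naive: it was lower for GASA6 (difference -1.73, adjusted p = 2.91e-05) and higher for GASA1 (1.17, adjusted p = 0.0038) and GASA4 (0.76, adjusted p = 0.0195), where 12.4% of all tested genes were lower and 23% higher. GASA6 read 548 and 607 TPM in naive and 205 and 161 TPM in primed WT shade.

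Across the 12 group means of log2(TPM + 1), the 3 genes most like GA20OX1 were the cytokinin oxidase gene CKX5 (Pearson r = 0.955), the small HLH gene PRE1 (0.955) and the arabinogalactan gene FLA5 (0.946). Those most like GA20OX2 were SPL13A (0.957), ATNST-KT1 (0.929) and LNG1 (0.929). GA3OX2 was most like the wall-modifying gene XTH31 (0.956), AT5G10890 (0.928) and DOF4.1 (0.914). The closest to GA3OX1 were PUR7 (0.893), CINV2 (0.873) and AT1G36280 (0.872). GA2OX6 was most like MORC1 (0.934), SRK2H (0.931) and AT4G29735 (0.929), and GA2OX1 like AL2 (0.94), SC35 (0.909) and the abscisic acid catabolism gene CYP707A3 (0.906). GA2OX4 was most like AT2G06025 (0.954), CYCL1-1 (0.952) and SUV2 (0.946). GA2OX8 was most like PP2A5 (0.935), CYP72A14 (0.926) and MAP2A (0.909), and GA2OX2 like AT3G02820 (0.897), OSB4 (0.89) and RPL39B (0.889). Among the members, GA20OX1 and GA20OX2 were correlated with r = 0.868 and GA20OX1 and GA3OX2 with r = -0.53. GA2OX6 and GA2OX1 had r = 0.769. The 12 groups share 3 genotype labels and the same shade treatment, so these values describe likeness of pattern and carry no test.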

How the data were processed

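The deposited values were TPM per gene for 24 libraries of whole seedlings, computed by the authors. Per the submitters' processing notes, FastQC, cutadapt, STAR, HTSeq and DESeq2 were used with the build TAIR10. Their versions and roles, the gene lengths, strandedness and read depth are not given in the sources used here. Groups and replicate numbers came from the sample titles.

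The test was limma 3.58.1, run in R 4.3.3 on log2(TPM + 1), over the genes that reached 1 TPM in 2 or more libraries. A model of 12 group means was fitted to all libraries (12 residual degrees of freedom), with variances moderated along a trend, and p-values were adjusted by Benjamini-Hochberg over 21473 genes within each of 17 comparisons. The procedure was run on simulated data, with changes planted only in genes whose mean log2(TPM + 1) was above 1. It therefore does not check calls of genes below that level, such as GA2OX1. The alternatives were 2 other filters and pseudocounts of 0.1 and 5, quantile normalization, a replicate block, only the compared groups, no naive mutants, and each library left out.

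The genes, lists and tests were chosen with earlier results of these data known. All 10 members were named, up to 6 passing genes per list and the 3 genes most like each member. Names were matched to the RefSeq annotation of TAIR10.1 (10 of 10), where no member overlapped another gene. That build differs from the authors' build, so no positions or sequences are printed.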

Additional observations from a re-analysis of the deposited data

Results flagged for a closer look

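Differences in shade response between histories or genotypes that passed the test of the difference itself were as follows, on the log2(TPM + 1) scale. Between WT histories, primed minus naive, these were GA2OX1 (1.03) and GA2OX4 (-0.89). Between pif7-1 and WT they were GA20OX1 in primed (-1.63) and naive (-1.92) seedlings, and in naive seedlings also GA20OX2 (-1.25), GA3OX2 (1.33) and GA2OX6 (-0.92). The naive differences between pif7-1 and WT also lie between entry blocks. Between ref6-1 and WT it was GA20OX1 in primed seedlings (-1.36).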

How the results depend on the processing

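Of 34 calls of single members, 14 passed in each alternative in which the gene was tested. In 423 refits of these calls 0 changed direction and 78 lost the call. Calls of genes other than the members were not followed through the alternatives. The number of genes called out of 9 moved by more than 1.5 times as follows. A filter of 5 TPM, which leaves fewer genes tested, gave 3 in the naive WT shade response (5 before), 0 in the difference between WT histories (2), 1 in primed against naive WT shade (3) and 1 in primed ref6-1 against WT in white light (2). A pseudocount of 0.1 gave 1 in primed against naive WT in white light (0), 4 in primed ref6-1 against WT in white light (2) and 0 in the ref6-1 minus WT response of primed seedlings (1). A pseudocount of 5 gave 0 in the primed pif7-1 response (1), 0 in primed pif7-1 against WT in white light (1) and 1 in the ref6-1 minus WT response of naive seedlings (0). Without a filter the primed pif7-1 count in white light was 0. With only the compared groups the count was 1 for the WT histories and 0 in the primed pif7-1 response, the naive ref6-1 response, primed pif7-1 against WT in white light (1) and shade (4), primed ref6-1 against WT in white light, and the ref6-1 minus WT response of primed seedlings. Without the naive mutants it was 1 for the WT histories, 1 in primed against naive WT in white light, and 2 in the pif7-1 minus WT response of primed seedlings (1). The causes were not tested beyond the smaller number of genes or samples that an alternative has by construction. Omission of single libraries gave 0 to 2 for the WT histories, 4 to 5 in naive and 2 to 3 in primed WT shade, and 2 to 3 in primed against naive WT shade. It gave 0 to 0 in the primed pif7-1 response, 2 to 3 in naive and 1 to 1 in primed ref6-1, 0 to 0 and 2 to 3 in primed pif7-1 against WT in white light and shade, and 1 to 2 in primed ref6-1 against WT in white light. For differences in response it gave 2 to 5 and 1 to 1 in naive and primed pif7-1, and 0 to 1 in naive and 0 to 1 in primed ref6-1. With the replicate block the count of primed pif7-1 against WT in white light was 0 (1 before), and it changed no other count by more than 1.5 times. The replicate numbers do not pair the samples: same-numbered libraries of 66 pairs of groups had correlations of -0.117 to 0.132 between their deviations, above 0.1 in 6 pairs. The counts above are given without the share of all genes called at the same setting. That share also varied, for instance from 16.1% to 39.8% in naive WT shade and from 10.3% to 29% in primed WT shade.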

Other observations

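Seed storage transcripts differed between replicates of some groups. CRA1, a cruciferin gene, read 8.84 and 85.7 TPM in primed ref6-1 in white light, 48.6 and 0.49 TPM in primed ref6-1 shade and 44.9 and 0.81 TPM in naive pif7-1 in white light. In WT it did not exceed 6.43 TPM. Beside the CRA1 values, GA20OX2 read 0.88 and 0.67 TPM in primed ref6-1 in white light, 6.27 and 5.82 TPM in primed ref6-1 shade and 2.08 and 2.23 TPM in naive pif7-1 in white light. The seed gene EM1 was higher than in WT in primed ref6-1 in white light (log2 difference 2.48, adjusted p = 0.000446) and shade (1.46, adjusted p = 0.0276). It was also higher in primed pif7-1 shade (1.28, adjusted p = 0.025). CRA1 and the seed gene CRU3 did not pass in these comparisons. The part of the seed genes in the results was not tested.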
